A study of Mus musculus with 10 samples.

Results

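Tight junctions seal the space between neighboring epithelial cells, and the genes described here encode their main parts. The 10 genes were chosen by name: 7 claudins (*Cldn2*, *Cldn3*, *Cldn4*, *Cldn7*, *Cldn8*, *Cldn15* and *Cldn23*), occludin (*Ocln*) and the scaffolds ZO-1 (*Tjp1*) and ZO-3 (*Tjp3*). They are 10 of 54532 genes in the count table, and all 10 passed the filter on low counts that left 15703 genes for testing. RNA came from small intestinal epithelium of 5 litter-matched Gucy2c-GFP mice of the CD1/ICR stock, 10 weeks of age, in which the *Gucy2c* promoter drives GFP. Cells of each mouse were sorted by GFP brightness into a GUCY2Chi and a GUCY2Cmed population, 20000 cells per library, which gave 5 libraries per group. All mice carried the reporter, so the comparison is between cells of the same epithelium. It asks which transcripts set the brightest cells apart from those of medium brightness.

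Claudins are membrane proteins whose extracellular loops join across the gap between cells and form strands. Some, including Cldn2 and Cldn15, form pores that let small cations and water pass, whereas others tighten the seal. Occludin lies in the same strands, and the ZO proteins tie strands to actin inside the cell. In the small intestine, the pore-forming claudins are known for the sodium that flows back to the lumen and drives nutrient uptake.

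Total counts ranged from 13090212 to 13520800 in GUCY2Chi and from 10903958 to 15307932 in GUCY2Cmed. *Gucy2c* itself, whose promoter drives the sorted GFP, was higher in GUCY2Chi in all 5 mice (3.27-fold, adjusted p = 0.00187 in edgeR's quasi-likelihood test), which checks the sort and is not a finding. Levels are given as cpm, the read count scaled to a library's total with edgeR's TMM factors. Markers of enteroendocrine cells summed to between 24438 and 98486 cpm in GUCY2Chi and between 83.5 and 242 cpm in GUCY2Cmed. Of these markers, 8 of 8 were called higher, against 13.9% of all genes tested. One of them, *Pax6*, had no GUCY2Cmed library over 0.5 cpm, so it passed the filter only through GUCY2Chi and had to be higher. Markers of enterocytes, the absorptive cells, summed to between 3151 and 30993 cpm in GUCY2Chi and between 55843 and 74544 cpm in GUCY2Cmed. Of these, 3 of 12 were called lower, against 8.79% of all genes tested. In limma-voom it was 9, against 11.4%, and in DESeq2 11, against 14.2%. The GUCY2Chi libraries of mice 12 and 15 stood apart with 30230.3 and 30993 cpm of enterocyte markers, against at most 4500.3 cpm in those of the other mice. The fold changes of *Cldn2*, *Cldn4*, *Cldn15* and *Dsc2* and the numbers of junction genes called lower are also given without mice 12 and 15. Shares and ratios are given for all libraries. In such bulk samples, fewer cells of a type and less RNA per cell cannot be told apart.

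The plainest difference lay in which claudins made up the junction transcripts. *Cldn4*, a claudin of tight epithelia, rose in GUCY2Chi, and *Tjp3*, a scaffold beneath the strands, fell. Throughout, a gene is called when its Benjamini-Hochberg adjusted p over all genes tested was under 0.01. By this rule, 1 member was higher and 1 lower, where 13.9% of all genes tested were higher and 8.79% lower (2 of 10 members in either direction, against 22.7%). DESeq2 called 1 member higher and 5 lower, against 18.8% and 14.2% of all genes, and limma-voom called 1 and 3, against 13.6% and 11.4%. In edgeR with library size alone, 1 member was higher and 0 lower (4 lower at an unadjusted p under 0.05), against 18.5% and 3.55%. At an adjusted p under 0.05, 1 member was higher and 4 were lower, against 21.4% and 17.6% of all genes tested. Without regard to a test, the 5 GUCY2Chi libraries lay wholly below the 5 GUCY2Cmed libraries for 5 members (13.2% of all genes tested) and wholly above them for 1 member (16.7%). The median log2 fold change of the 10 members was -0.37, against 0.09 over all genes tested.

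**Figure D1:**
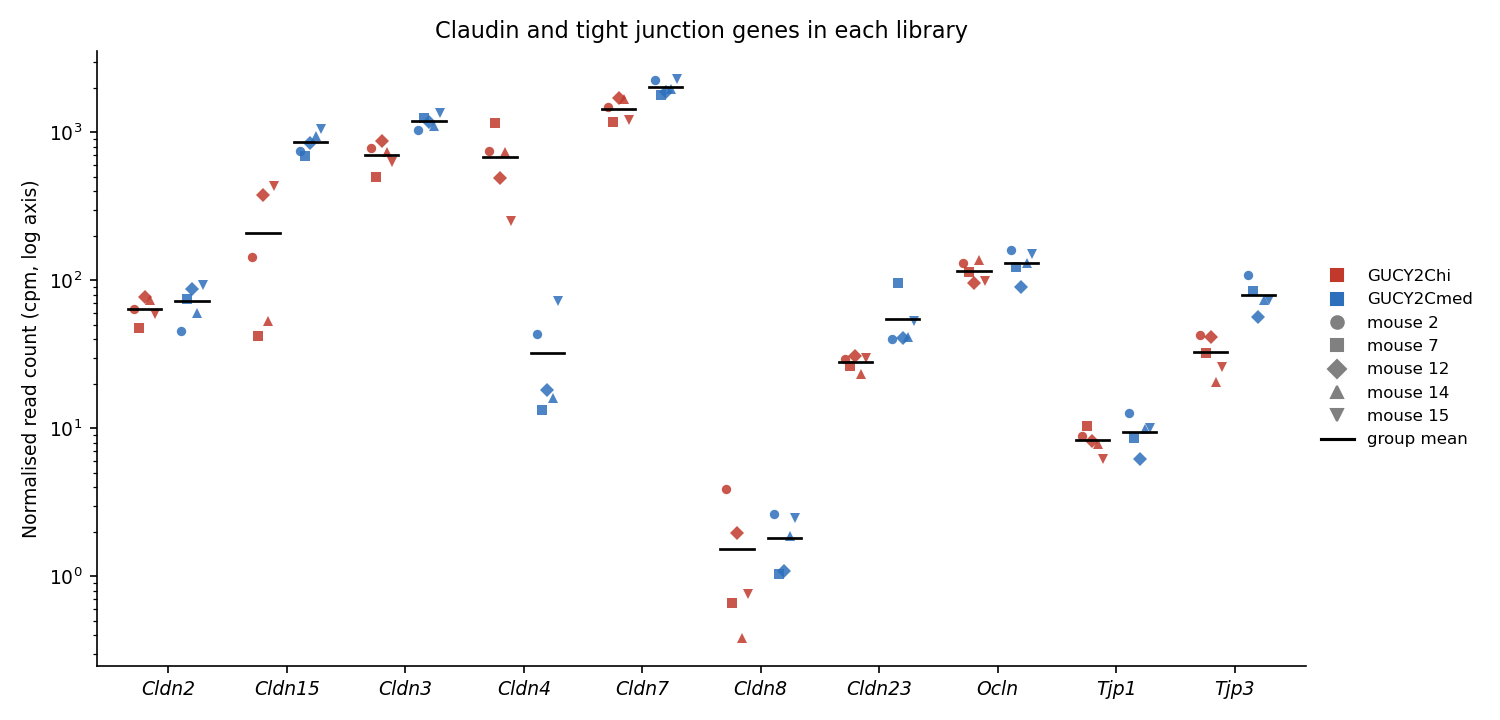
Normalised read count (cpm, log axis) of the 10 members in every library, with GUCY2Chi in red, GUCY2Cmed in blue, one marker shape per mouse and a black bar at each group mean. The red points of *Cldn4* lie at or above 251 cpm and its blue points at or below 72.2 cpm, while for *Cldn3*, *Cldn7*, *Cldn15*, *Cldn23* and *Tjp3* all red points lie below all blue ones.

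*Cldn4* and *Cldn3* are neighbors in the genome and took opposite positions between the groups, and *Tjp3* was the member called lower. The 250 bases before the annotated start of each are shown for this reason (RefSeq, GRCm38.p6). Capitals mark matches, on either strand, to 6 short motifs, which are TATAAA for the TATA box, GGGCGG for the GC box, AGATAA for a GATA site, CAGATG for an E-box, TTTATG for a CDX site and TGANTCA for an AP-1 site. No 2 matches overlap in these stretches.

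Cldn4, chr5:134946935-134947184, minus strand: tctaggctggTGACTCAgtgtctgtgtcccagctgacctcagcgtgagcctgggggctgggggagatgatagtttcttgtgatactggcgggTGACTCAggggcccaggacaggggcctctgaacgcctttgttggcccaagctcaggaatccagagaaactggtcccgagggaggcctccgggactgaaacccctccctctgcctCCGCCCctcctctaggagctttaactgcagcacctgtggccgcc

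Cldn3, chr5:134985964-134986213, plus strand: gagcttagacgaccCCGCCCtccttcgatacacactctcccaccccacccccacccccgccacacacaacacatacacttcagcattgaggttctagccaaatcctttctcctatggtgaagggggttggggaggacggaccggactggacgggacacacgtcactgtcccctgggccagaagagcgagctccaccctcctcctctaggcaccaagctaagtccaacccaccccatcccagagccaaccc

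Tjp3, chr10:81291582-81291831, minus strand: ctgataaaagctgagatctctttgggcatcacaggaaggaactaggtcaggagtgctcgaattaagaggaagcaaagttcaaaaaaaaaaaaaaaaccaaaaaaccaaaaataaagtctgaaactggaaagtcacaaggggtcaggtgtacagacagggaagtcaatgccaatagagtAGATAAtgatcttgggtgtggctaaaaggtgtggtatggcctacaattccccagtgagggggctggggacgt

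The *Cldn4* stretch held TGANTCA beginning at positions -240 and -158 from the start, and GGGCGG at -44. TGANTCA occurred in 6.75% and GGGCGG in 32.7% of 32851 annotated promoters of the same length, and in 4.8% and 54.6% of the 14794 promoters of genes tested. Among the members, 8 had an annotated promoter (11 stretches in all, none for *Cldn8* and *Cldn23*), and TGANTCA occurred in those of *Cldn4* and *Cldn15*. The *Cldn3* stretch held GGGCGG at -236. The *Tjp3* stretch held AGATAA at -72, as did 9.99% of all promoters and 6.27% of those of genes tested, and the stretch before its second annotated start held none of the 6. These matches are letters only, and no binding was measured.

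*Cldn4* (ENSMUSG00000047501, chr5:134945119-134946934, minus strand) encodes a claudin of tight epithelia that is also known as a receptor for a clostridial enterotoxin. Its GUCY2Chi libraries held 749, 1163, 495, 735 and 251 cpm in mice 2, 7, 12, 14 and 15. The GUCY2Cmed libraries held 43.3, 13.2, 18.1, 16 and 72.2 cpm in the same order. The groups did not overlap, and mouse 15 had both the lowest GUCY2Chi and the highest GUCY2Cmed value. The means were 679 ± 339 cpm (SD, n = 5) and 32.6 ± 25.2 cpm (SD, n = 5). The fitted log2 fold change was 4.38 ± 0.59 (SE), a 20.9-fold difference (edgeR adjusted p = 0.000281). It passed the threshold in 21 of 21 alternative fits, with log2 fold changes between 4.09 and 5.20, and without mice 12 and 15 it was 5.20 (edgeR adjusted p = 0.000468).

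*Cldn4* varied across the GUCY2Chi libraries together with the summed enteroendocrine markers at the low end: mouse 15 was lowest and mouse 12 next lowest for both. Not every marker taken singly had this order. For *Cck*, mouse 2 was next lowest (11291 cpm, against 12045 cpm in mouse 12). For *Gip* it was mouse 7 (20907 cpm, against 25892 cpm in mouse 12). In GUCY2Cmed, *Cldn4* remained at 1.95% to 10.6% of its GUCY2Chi mean, whereas *Chga*, the chromogranin A of endocrine granules, was at 0.136% to 0.408%. Among the enteroendocrine markers *Scg3* was highest by this measure, at 0.219% to 2.21%, which reached into the range of *Cldn4*. Per length, GUCY2Cmed libraries held between 0.609 and 4.09 times as much *Cldn4* as *Chga*, and GUCY2Chi libraries between 0.0707 and 0.267 times. *Cldn4* and *Chga* thus did not keep 1 ratio between the groups.

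*Cldn3* (ENSMUSG00000070473, chr5:134986214-134987472, plus strand) lies 39279 bases from *Cldn4* with 0 genes between them, and encodes a sealing claudin. It was at 780.2, 501, 876, 738 and 634 cpm in GUCY2Chi and at 1044, 1250.5, 1177, 1100.3 and 1361 cpm in GUCY2Cmed, for mice 2, 7, 12, 14 and 15. Every GUCY2Chi library lay below every GUCY2Cmed library. Its log2 fold change of -0.75 ± 0.21 (SE) did not pass the threshold in edgeR (adjusted p = 0.0141), but did in limma-voom (0.0068) and DESeq2 (0.000249). With the mouse as a block it passed in neither edgeR (adjusted p = 0.0397) nor limma-voom (0.0201), and in all it passed in 2 of 21 alternatives. It ranged from -0.84 to -0.48 over these. The antisense gene *Wbscr25* overlaps *Cldn3* only at chr5:134987433-134987472. Reads of this shared stretch cannot be told apart without strand, and *Wbscr25* held 72 counts over all 10 libraries. Between these neighbors, the level per length of *Cldn4* was 0.274 to 1.61 times that of *Cldn3* in GUCY2Chi and 0.00734 to 0.0367 times in GUCY2Cmed.

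*Cldn7* (ENSMUSG00000018569, chr11:69964779-69967885, plus strand), a claudin found along the lateral membrane as well as at the junction, had the highest mean level per length of all members in both groups. In GUCY2Chi of mouse 7, however, *Cldn4* was at 1.05 times *Cldn7* per length. This depends on the length used for *Cldn7*, 1948 bases here and 824 in the deposited FPKM. By FPKM, *Cldn7* was at 1762 or more in GUCY2Chi and *Cldn4* at 805 or less. The values of *Cldn7* were 1476, 1185, 1705, 1671 and 1219.9 cpm in GUCY2Chi and 2256, 1786, 1872, 1974 and 2308 cpm in GUCY2Cmed. The groups did not overlap, with a gap of less than 100 cpm between the highest GUCY2Chi and the lowest GUCY2Cmed library. The log2 fold change was -0.49 ± 0.21 (SE; edgeR adjusted p = 0.0874), and 1 of 21 alternatives, DESeq2, passed the threshold (adjusted p = 0.00812).

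The pore-forming claudins did not behave alike. *Cldn15* (ENSMUSG00000001739, chr5:136966616-136975858, plus strand), the sodium-conducting claudin of the small intestine, was at 144, 42.0, 377, 52.9 and 432 cpm in GUCY2Chi and at 744, 697, 843, 953 and 1051 cpm in GUCY2Cmed. The groups did not overlap, but the GUCY2Chi libraries spread from 42.0 to 432 cpm, with mice 12 and 15 highest. The log2 fold change was -2.03 ± 0.59 (SE; edgeR adjusted p = 0.0184). It did not pass the threshold in the unblocked edgeR fit or with the mouse as a block (-2.59, adjusted p = 0.0140), but did in limma-voom without the block (adjusted p = 0.00749) and with it (0.00484), and in DESeq2 (0.00203). Of the 10 fits that left out a library, it passed in 1, without GUCY2Chi of mouse 15 (-2.45, edgeR adjusted p = 0.0079), and in the others the adjusted p was up to 0.0573. Leaving out mice 12 and 15 gave -3.33 (edgeR adjusted p = 0.00197).

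In GUCY2Chi *Cldn15* was at 19.4%, 6.02%, 44.8%, 5.55% and 41.1% of its level in GUCY2Cmed of the same mouse, for mice 2, 7, 12, 14 and 15. The summed enterocyte markers were at 6.04%, 5.64%, 45.6%, 6.79% and 42.7%. Both were highest in mice 12 and 15, mouse 2 had the widest gap between them, and the order of mice 2, 7 and 14 differed. The sum is carried by its most abundant genes, and of the 12 markers taken singly, 9 were highest in mice 12 and 15. *Sis* (54.0% in mouse 15 and 95.9% in mouse 2), *Apob* (22.0% in mouse 15 and 23.9% in mouse 7) and *Anpep* (18.3% in mouse 15 and 20.3% in mouse 7) were not. The part of enterocyte transcripts in the *Cldn15* difference was not tested.

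**Figure D2:**
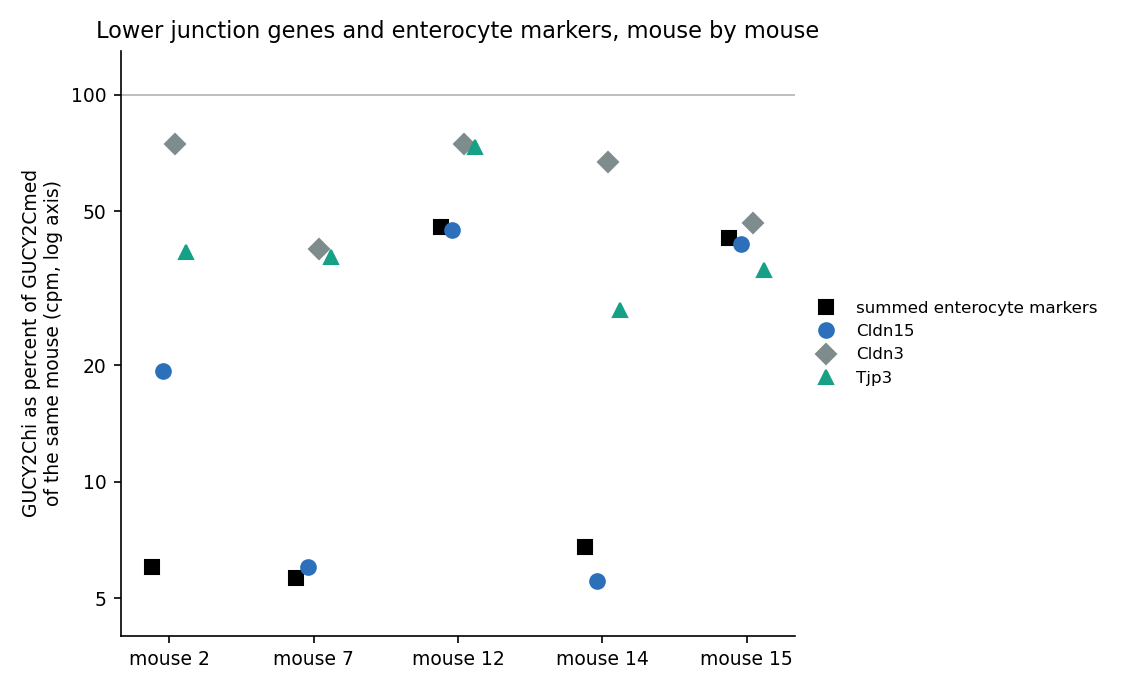
Level in GUCY2Chi as a percent of the level in GUCY2Cmed of the same mouse (cpm, log axis) for *Cldn15*, *Cldn3*, *Tjp3* and the sum of the enterocyte markers; the grey line marks 100%. *Cldn15* and the summed enterocyte markers are both highest in mice 12 and 15 (41.1% to 45.6%), while *Tjp3* is at 35.2% in mouse 15 and 73.4% in mouse 12.

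*Cldn2* (ENSMUSG00000047230, chrX:139800828-139811386, plus strand), a cation and water pore known from crypts, was at 64.4, 48.1, 77.4, 73.4 and 59.5 cpm in GUCY2Chi and at 45.6, 75.0, 87.2, 60.1 and 93.8 cpm in GUCY2Cmed. The groups overlapped, with GUCY2Chi lower in 3 of 5 mice. The log2 fold change of -0.16 ± 0.21 (SE; edgeR adjusted p = 0.596) turned to 0.11 when only library size scaled the counts and to 0.04 without mice 12 and 15. The ratio of *Cldn2* to *Cldn15* per length was 0.0879 to 0.886 in GUCY2Chi and 0.0392 to 0.0687 in GUCY2Cmed, without overlap.

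*Cldn23* (ENSMUSG00000055976, chr8:35824712-35826559, minus strand), a claudin of the intestinal surface, was at 29.5, 26.3, 30.8, 23.4 and 30.1 cpm in GUCY2Chi and at 40.4, 96.6, 40.9, 41.7 and 53.6 cpm in GUCY2Cmed. The GUCY2Chi values were the most even of the set and lay below every GUCY2Cmed value, among which mouse 7 stood out. The log2 fold change was -0.96 ± 0.25 (SE; edgeR adjusted p = 0.0106) and did not pass the threshold. It passed in 2 of 21 alternatives, without the GUCY2Cmed library of mouse 7 (-0.66, edgeR adjusted p = 0.0091) and in DESeq2 (adjusted p = 0.00239). It did not in limma-voom (0.0133), with the mouse as a block in edgeR (0.0280) or with library size alone (0.0597). *Cldn8* (ENSMUSG00000050520, chr16:88560828-88563183, minus strand), a sealing claudin of the distal gut and kidney, had between 5 and 58 counts per library. It ranged from 0.385 to 3.90 cpm in GUCY2Chi and from 1.04 to 2.62 cpm in GUCY2Cmed, and the groups overlapped (log2 fold change -0.24 ± 0.61 SE, edgeR adjusted p = 0.805, turning to 0.02 under library size alone).

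Occludin and ZO-1 gave no call. *Ocln* (ENSMUSG00000021638, chr13:100496507-100552718, minus strand) was at 131, 113, 96.1, 137 and 99.6 cpm in GUCY2Chi and at 160.1, 123, 90.7, 131 and 151 cpm in GUCY2Cmed, with overlapping groups. Its log2 fold change was -0.18 ± 0.18 (SE; edgeR adjusted p = 0.481), and 0.10 with library size alone. *Tjp1* (ENSMUSG00000030516, chr7:65296165-65527781, minus strand), the ZO-1 scaffold that binds claudins, occludin and actin, was at 6.17 to 10.4 cpm in GUCY2Chi and 6.19 to 12.6 cpm in GUCY2Cmed. Its log2 fold change was -0.19 ± 0.23 (SE; edgeR adjusted p = 0.563), and 0.09 with library size alone.

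*Tjp3* (ENSMUSG00000034917, chr10:81273207-81291581, minus strand) encodes ZO-3, a scaffold related to ZO-1 and largely limited to epithelia. It was at 43.1, 32.6, 41.5, 20.5 and 26.1 cpm in GUCY2Chi and at 109.6, 85.3, 56.5, 73.7 and 74.2 cpm in GUCY2Cmed. The groups did not overlap, GUCY2Chi was lower in 5 of 5 mice, and mouse 12 had the smallest gap. The log2 fold change was -1.29 ± 0.24 (SE), or 41.0% of the GUCY2Cmed level (edgeR adjusted p = 0.00203). The call held in 20 of 21 alternatives and was lost by a narrow margin with library size alone (-1.02, adjusted p = 0.0101). Per length, *Tjp3* was 5.48 to 10.7 times *Tjp1* in GUCY2Chi and 15.5 to 20.9 times in GUCY2Cmed, so the make-up of the ZO scaffolds differed between the groups without overlap. *Apba3*, on the opposite strand, overlaps *Tjp3* only at chr10:81273207-81273246 and held 7920 counts over the 10 libraries. *Apba3* was lower too (log2 fold change -1.25 ± 0.21 SE, edgeR adjusted p = 0.00123), and without strand the reads of the shared stretch cannot be told apart.

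**Figure D3:**
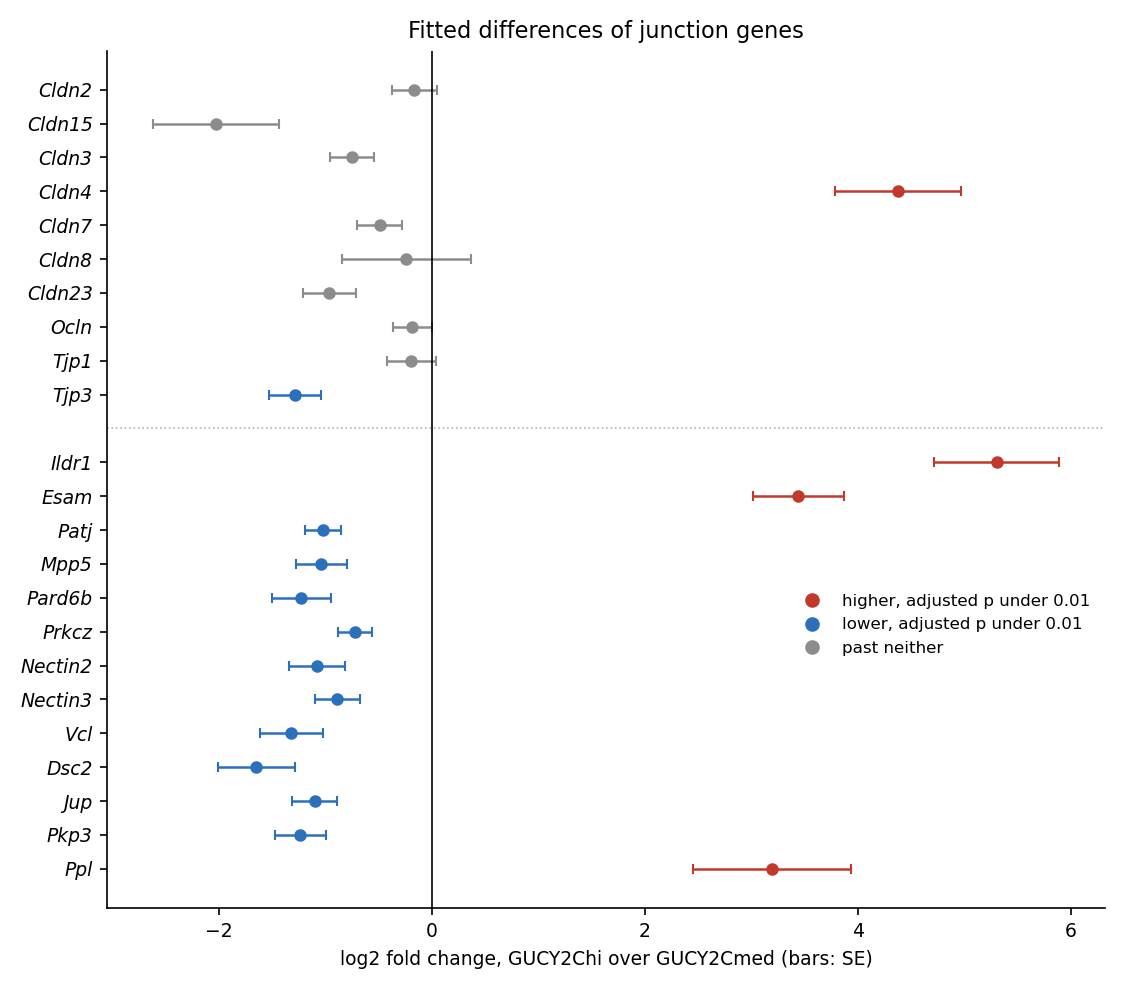
Fitted log2 fold change (x axis, GUCY2Chi over GUCY2Cmed, bars show the SE) of the 10 members above the dotted line and, below it, of the other junction genes called, except 5 claudins with almost no counts in GUCY2Cmed. *Cldn4* stands at 4.38 and *Ildr1* at 5.30, while the genes called lower lie between -1.65 and -0.72; *Cldn2*, *Cldn8*, *Ocln* and *Tjp1*, near 0, turn positive when only library size scales the counts.

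Ordered by mean level per length (cpm per kilobase of gene), GUCY2Chi held *Cldn7* (745), *Cldn3* (560.5), *Cldn4* (374) and *Cldn15* (98.7), then *Ocln* (27.4), *Cldn2* (19.4), *Cldn23* (15.2), *Tjp3* (8.82), *Tjp1* (1.06) and *Cldn8* (0.651). Neighbors in this order overlapped between libraries except *Cldn23* above *Tjp3* and *Tjp3* above *Tjp1*. In GUCY2Cmed the order was *Cldn7* (1047), *Cldn3* (942), *Cldn15* (404), *Ocln* (31.1), *Cldn23* (29.6), *Cldn2* (21.8), *Tjp3* (21.5), *Cldn4* (17.9), *Tjp1* (1.22) and *Cldn8* (0.773). There, *Cldn3* stood above *Cldn15*, *Cldn15* above *Ocln* and *Cldn4* above *Tjp1* without overlap. *Cldn4* thus moved from the third place in GUCY2Chi to the eighth in GUCY2Cmed. The deposited FPKM, which rest on shorter lengths for 7 of the 10 genes, gave the same order in GUCY2Chi and put *Tjp3* above *Ocln* in GUCY2Cmed.

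The 33 claudins in the table summed to 1839 ± 219 cpm per kilobase in GUCY2Chi (SD, n = 5) and to 2469.9 ± 223 in GUCY2Cmed (SD, n = 5), with all GUCY2Chi libraries lower (1522 to 2081 against 2327 to 2866). *Cldn4* took 20.3% ± 10.8 of this sum in GUCY2Chi and 0.697% ± 0.473 in GUCY2Cmed (SD, n = 5 each). *Cldn15* took 5.57% ± 5.29 and 16.3% ± 1.94. The shares of both separated the groups completely, *Cldn4* at 9.08% to 37.2% against 0.313% to 1.39%, and *Cldn15* at 1.15% to 13.4% against 14.1% to 18.7%. *Cldn7* kept a similar share, 35.3% to 44.2% and 39.4% to 48.2%, and *Cldn3* took 23.1% to 33.4% and 34.5% to 42.7%. With the deposited FPKM, the share of *Cldn4* was 12.9% and 0.413%. On that scale *Cldn7* took 55.2% to 63.8% and 56.9% to 65.4%. The shares of *Cldn3* then overlapped, at 15.3% to 20.4% and 19.8% to 26.1%. Shares of one sum move against each other, so a higher share of *Cldn4* lowers the rest.

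**Figure D4:**
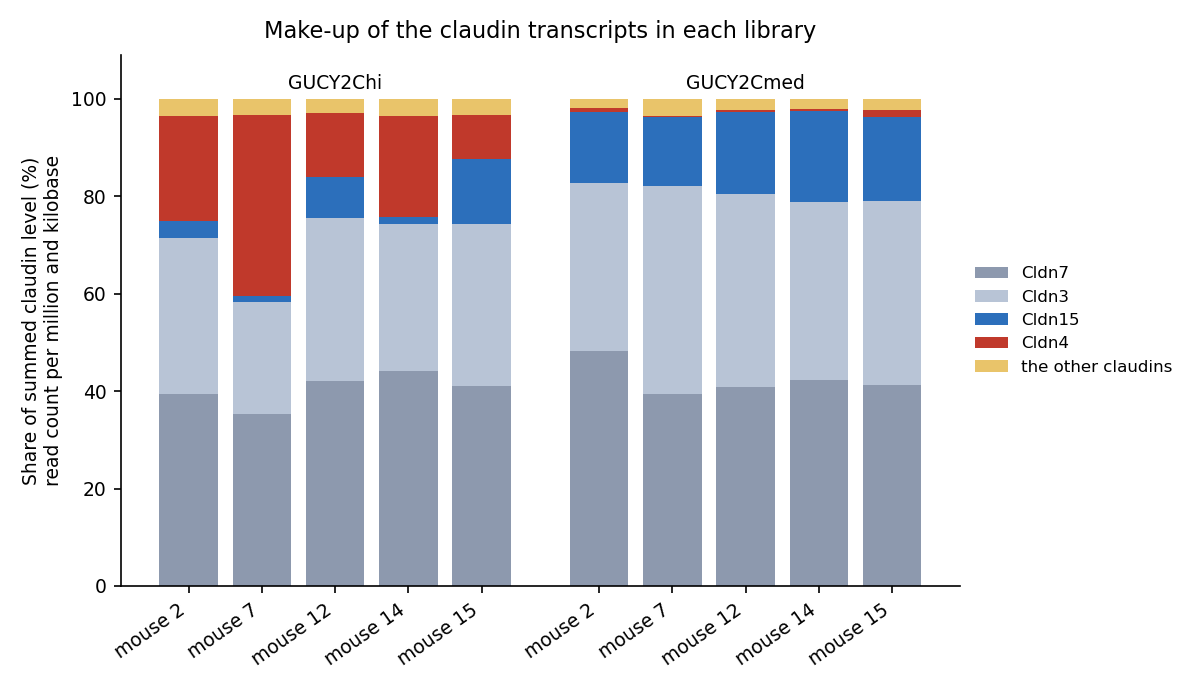
Share of the summed level of all 33 claudins (cpm per kilobase, in percent) taken by *Cldn7*, *Cldn3*, *Cldn15*, *Cldn4* and the other claudins in each of the 10 libraries. *Cldn4* (red) fills 9.08% to 37.2% of the GUCY2Chi bars and at most 1.39% of the GUCY2Cmed bars, and *Cldn15* (blue) fills 14.1% to 18.7% of the GUCY2Cmed bars.

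Of 26 claudins outside the set, 7 passed the filter on low counts. For 5 of these (*Cldn1*, *Cldn5*, *Cldn6*, *Cldn9* and *Cldn34b3*) no GUCY2Cmed library was over 0.5 cpm, so they passed only through GUCY2Chi and had to be higher there. They were called higher in edgeR, as were 569 of all 914 genes that passed in this way, and their values are a description. The 2 others were *Cldn10* and *Cldn12*. *Cldn6* and *Cldn9*, whose genes lie 137 bases apart on chromosome 17, were at 3.34 to 9.48 cpm and 8 to 22.3 cpm in GUCY2Chi. In GUCY2Cmed they had 3 and 12 counts over all 5 libraries. The pooled ratios were 146 (95% exact interval 49.8 to 711) and 74.3 (42.4 to 144), where the intervals cover counting error only. *Cldn1*, a claudin of the skin barrier, was at 4.39 to 13.3 cpm in GUCY2Chi with 6 counts in GUCY2Cmed, a ratio of 79.2 (36.1 to 217). These 3 made up under 1% each of the summed claudin level per length in GUCY2Chi.

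*Cldn5*, the claudin of blood vessel walls, was at 2.76, 1.93, 0.0757, 3.01 and 0.0630 cpm in GUCY2Chi, that is 1 count each in mice 12 and 15, and had 1 count in GUCY2Cmed. It was called in 11 of 17 alternatives (log2 fold change 3.81 to 7.42, adjusted p up to 0.0545), and the call was lost when any GUCY2Cmed library was left out (adjusted p 0.0128 to 0.0239). Without the GUCY2Chi library of mouse 2, 7 or 14 it no longer passed the filter. Of the endothelial markers, *Cdh5*, *Kdr*, *Tek*, *Emcn* and *Tie1* did not pass the filter on low counts, while *Pecam1*, at 0.315 to 6.81 cpm against 0 to 0.225 cpm, passed only through GUCY2Chi. Their part in the *Cldn5* level was not tested. *Cldn34b3* was at 0.0757 to 2.70 cpm in GUCY2Chi with 1 count in GUCY2Cmed. It was called in 18 of 20 alternatives. The call was lost without the GUCY2Cmed library of mouse 7 (edgeR adjusted p = 0.0116) and in limma-voom without the block (adjusted p = 0.0121). *Cldn12*, by contrast, was at 24.6 to 40.3 cpm and 24.6 to 32.4 cpm, a log2 fold change of 0.18 ± 0.17 (SE; edgeR adjusted p = 0.465).

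**Figure D5:**
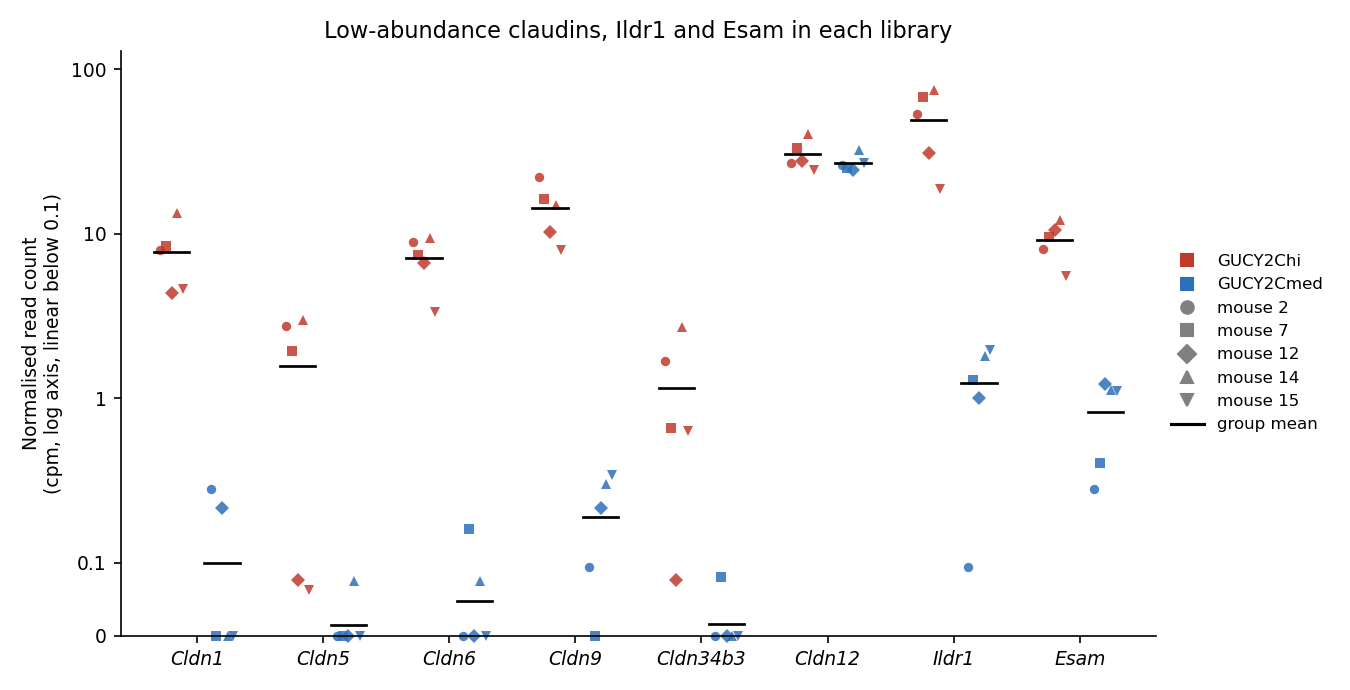
Normalised read count (cpm, log axis that is linear below 0.1) of claudins outside the set and of *Ildr1* and *Esam* in every library, with GUCY2Chi in red, GUCY2Cmed in blue, one marker shape per mouse and a bar at each group mean. *Cldn1*, *Cldn6* and *Cldn9* stay under 0.4 cpm in all GUCY2Cmed libraries and above 3 cpm in all GUCY2Chi libraries; *Cldn12* overlaps.

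Among 12 other transmembrane proteins of tight junctions, 2 were called higher, against 13.9% of all genes tested, and 10 were not called (median log2 fold change 0.41). *Ildr1*, an angulin of the corners where 3 cells meet, was at 53.7, 67.9, 31.2, 75.5 and 18.6 cpm in GUCY2Chi and at 0.0936 to 1.97 cpm in GUCY2Cmed. Its lowest GUCY2Chi values came from mice 12 and 15, as did those of *Cldn4*. The log2 fold change was 5.30 ± 0.59 (SE; edgeR adjusted p = 7.76e-05). *Esam*, an adhesion molecule of the JAM family, was at 5.54 to 12.1 cpm and 0.281 to 1.22 cpm (log2 fold change 3.44 ± 0.43 SE, edgeR adjusted p = 0.000173). Both calls held in 20 of 20 alternatives. The other angulin *Lsr* (0.35 ± 0.17 SE, edgeR adjusted p = 0.121) and tricellulin, *Marveld2* (0.04 ± 0.20 SE, edgeR adjusted p = 0.902), gave no call.

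Of 22 other scaffold and polarity genes, 4 were called lower, against 8.79% of all genes tested, and 18 were not called (median log2 fold change -0.49). *Patj*, a multi-PDZ partner of the Crumbs complex, was at 12.7 to 17.7 cpm in GUCY2Chi and 24.7 to 36.1 cpm in GUCY2Cmed (log2 fold change -1.02 ± 0.17 SE, edgeR adjusted p = 0.00108). *Mpp5*, which joins Patj to Crumbs, changed by -1.04 (edgeR adjusted p = 0.00625), the polarity adaptor *Pard6b* by -1.23 (0.00536) and the atypical kinase *Prkcz* by -0.72 (0.00456). With the mouse as a block, *Pard6b* and *Prkcz* lost their calls in edgeR (adjusted p = 0.0107 and 0.0138). *Mpp5*, *Pard6b* and *Prkcz* each lost their calls in 7 of the 10 fits that left out a library (adjusted p up to 0.0282), whereas *Patj* kept its call without each of the 10.

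Of 11 adherens junction genes tested, 3 were called lower, against 8.79% of all genes tested, and 8 were not called (median log2 fold change -0.46). The 3 were the nectins *Nectin2* (-1.08, edgeR adjusted p = 0.00838) and *Nectin3* (-0.89, 0.00684) and the actin linker *Vcl* (-1.32, 0.0051). E-cadherin, *Cdh1*, overlapped between the groups (0.10 ± 0.26 SE, edgeR adjusted p = 0.817). Of 8 desmosome genes, 3 were called lower and 1 higher, against 8.79% and 13.9% of all genes tested (median log2 fold change -0.50). The cadherin *Dsc2* changed by -1.65 (edgeR adjusted p = 0.00473), plakoglobin, *Jup*, by -1.10 (0.00229), and plakophilin *Pkp3* by -1.24 (0.0025). Without mice 12 and 15, *Dsc2* changed by -2.32 (edgeR adjusted p = 0.000415). Periplakin, *Ppl*, was higher, at 0.819 to 13.2 cpm against 0.257 to 1.45 cpm (3.19 ± 0.74 SE, edgeR adjusted p = 0.00612).

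Several of these calls depended on the fit. With the mouse as a block, *Nectin3* (adjusted p = 0.0140), *Vcl* (0.0224) and *Jup* (0.0136) lost theirs in edgeR, while the scaffold gene *Cgn*, cingulin, gained one (log2 fold change -1.19, adjusted p = 0.0055, against 0.0155 without the block), and the number of other junction genes called lower went from 10 to 6. Without mice 12 and 15 it was also 6, and *Patj* (adjusted p = 0.0122) and *Jup* (0.0116) were among those lost. Of the 10 fits that left out a library, *Nectin2* and *Nectin3* lost their calls in 8, and *Vcl*, *Dsc2* and *Ppl* in 7 (adjusted p up to 0.0316), while *Jup* and *Pkp3* kept theirs without each of 10. With library size alone, 0 other junction genes were called lower in edgeR (15 at an unadjusted p under 0.05), against 3.55% of all genes tested. With TMM factors limma-voom called 10 lower, against 11.4%, and DESeq2 called 15, against 14.2%. In all, 8 of 60 other junction genes tested were called higher and 10 lower, against 13.9% and 8.79% of all genes tested, and their median log2 fold change was -0.09. The 8 include the 5 claudins that passed the filter only through GUCY2Chi.

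By the root mean square distance of centred log2 cpm over the 10 libraries, among 9976 genes with at least 5 cpm on average, *Cldn4* was most like *Nt5e*, an ecto-nucleotidase (0.41), *Rab3b*, a small GTPase of secretory vesicles (0.50), and *Rab37*, another small GTPase (0.52). *Tjp3* was most like the desmosome gene *Pkp3* (0.07), followed by *C77080* (0.13) and *Trip10* (0.13). *Pkp3* was at 35.3, 27.2, 34.1, 18.5 and 22.8 cpm in GUCY2Chi and at 92.6, 70.8, 42.7, 59.0 and 59.6 cpm in GUCY2Cmed, the same order of mice as *Tjp3* within GUCY2Chi. The likeness rests on 2 groups of 5 libraries that share their sort and depth, and says nothing of shared control.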

How the data were processed

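RNA-Seq of 5 GUCY2Chi and 5 GUCY2Cmed libraries was analyzed from the count table. Per the labels, the sequencing provider aligned paired-end reads with STAR and deposited raw read counts per gene. The authors also deposited FPKM, whose implied length was shorter than the table's gene length for 13227 of 16630 genes (median ratio 0.47), so they served as an alternative only. The table's gene length, an other value as deposited, scaled cpm per kilobase. The 10 normalized per-sample columns of the table and the authors' fold changes, test statistics and p-values were not used. The submitters' processing notes name limma 3.40.6 and edgeR 3.26.8. The labels name mm9, but gene positions overlapped GRCm38.p6 for 37573 of 37624 symbols and NCBIM37 for 2737 of 28329, so positions are on GRCm38. Whether counting used strand is not given in the sources used here.

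Counts were tested in R 4.3.3 with edgeR 4.0.16 (quasi-likelihood test, TMM factors, no block) after requiring over 0.5 cpm in 3 libraries, with Benjamini-Hochberg adjustment over 15703 genes and a threshold of 0.01. The biological coefficient of variation was 0.458. The edgeR, limma-voom and DESeq2 fits were tested on simulated counts. There, edgeR called 1 of 98 genes changed 2-fold and 39 of 96 changed 4-fold, with 0 false calls. For limma-voom these numbers were 2, 37 and 0, and for DESeq2 20, 64 and 13. Of 15264 genes in that test, 194 were changed, whereas edgeR called 3567 of 15703 genes in the libraries. With so different a share, the numbers found there need not hold for the libraries. How often edgeR misses a 2-fold or 4-fold difference in the libraries was not tested. A missing call does not show that a gene is equal between the groups. Alternatives were limma 3.58.1 (voom), DESeq2 1.42.0, a mouse block, other scalings, filters and thresholds, and each library left out. Leaving out mice 12 and 15, and the 50 most abundant genes, was added after the data were seen. The numbers 2, 7, 12, 14 and 15 were read as those of mice, each sorted into both groups. Deviations of libraries from the same mouse correlated between -0.134 and 0.270 (5 pairs), and those of other pairs between -0.491 and 0.542 (20 pairs).

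The members, the gene lists and the tests were chosen with earlier results of these data known. Named were all members, every other junction gene called (up to 6 per list and direction), other claudins tested, and for each called member the 3 genes nearest in centred log2(cpm + 0.5). Markers were named where a result turned on them. Of the marker genes tested, edgeR called 1 of 7 tuft, 1 of 2 mesenchyme, 1 of 1 endothelium and 1 of 5 myelin genes higher. It called 6 of 8 proliferation genes lower. Of all genes tested, 13.9% were higher and 8.79% lower. The mesenchyme, endothelium and myelin genes called had no GUCY2Cmed library over 0.5 cpm, so they passed the filter only through GUCY2Chi and had to be higher. In edgeR, 0 of 6 goblet, 0 of 6 Paneth and 0 of 5 stem cell genes were called (3, 1 and 4 at an unadjusted p under 0.05). For the T cell and forebrain genes it was 0 of 6 each (0 and 0 at an unadjusted p under 0.05). Both limma-voom and DESeq2 called 1 stem cell gene. The forebrain genes were not absent: they summed to 26.5 to 1105 cpm in GUCY2Chi and to 11.6 to 619 cpm in GUCY2Cmed. The highest sums were in GUCY2Chi of mouse 15 and GUCY2Cmed of mouse 12, and their source was not tested. Python 3.11.15 (pandas 2.3.3, numpy 2.4.6, scipy 1.17.1) handled tables, and matplotlib 3.10.9 drew figures.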

Additional observations from a re-analysis of the deposited data

Results flagged for a closer look

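In groups of 5 libraries, a value was set aside for a closer look when its gap to the nearest other library exceeded 0.71 of the group's range (Dixon). Of 56 groups of libraries checked over 28 genes, 3 met this, and chance gives about 1 in 20 groups. *Cldn23* was at 96.6 cpm in GUCY2Cmed of mouse 7, against 40.4 to 53.6 cpm in the other GUCY2Cmed libraries. The same library had the highest sum of proliferation markers in its group (550.3 cpm, against 244 to 373 cpm), and the part of these cells in the *Cldn23* value was not tested. *Cldn5* was at 0.0751 cpm in GUCY2Cmed of mouse 14, and *Cldn34b3* at 0.0803 cpm in GUCY2Cmed of mouse 7, which are single counts where the other libraries had 0.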

How the results depend on the processing

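Among the members, the 1 higher call held under each alternative. With library size alone the median log2 fold change of all genes moved from 0.09 to 0.39, and *Cldn2* (0.11), *Cldn8* (0.0241), *Ocln* (0.10) and *Tjp1* (0.0921) turned positive, none of them called. Without mice 12 and 15 *Cldn2* also turned (0.0380), and with each library left out *Cldn8* ranged from -0.88 to 0.0061, positive without GUCY2Chi of mouse 14. The number of members lower was 0 with library size alone (4 at an unadjusted p under 0.05), 5 with DESeq2, 3 with limma-voom, 2 with limma-voom and a replicate block, 2 without mice 12 and 15, 4 at a threshold of 0.05, and 1 to 2 with each library left out. The other junction genes higher numbered 5 with limma-voom and 6 to 9 with each library left out. At least 10 counts in every library left 42 of them, with 0 higher (3 at an unadjusted p under 0.05) and 6 lower, and gave no value for *Cldn8*, since fewer genes were tested. The other junction genes lower numbered 0 with library size alone, 6 with the replicate block in edgeR and 6 without mice 12 and 15. They numbered 19 at a threshold of 0.05, against 17.6% of all genes tested, and 3 to 10 with each library left out. Over all genes, 1294 were higher and 779 lower with the block in edgeR, 557 lower with library size alone, 2235 lower with DESeq2, and 3367 higher and 2767 lower at 0.05. With each library left out, 1636 to 2534 were higher and 512 to 1609 lower. In edgeR, the block changed no call of a member, and among the other junction genes only those given in the report. In limma-voom it ended the calls of *Cldn3*, *Prkcz* (adjusted p = 0.0109) and *Vcl* (0.0120) and added those of *Cldn5* (0.0090), *Cldn34b3* (0.0074), *Cgn* (0.00299), *Crb3* (0.00821), *Ppl* (0.00112) and *Evpl* (0.00799). With FPKM, the share of *Cldn15* among claudins in GUCY2Cmed was 14.2%. The cause of these changes was not tested.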
